A study of Mus musculus with 4 samples.

Results

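Malat1, Neat1 and Kcnq1ot1 are long RNAs that code for no protein and are kept in the nucleus, and their levels were followed through immune cells of the injured mouse brain. The 3 genes were taken by symbol from the 32285 genes of the matrices, and they had been chosen by their measured levels in these cells, so those levels are given as a description with no test. CD45-positive cells, which include microglia and blood-derived leukocytes, had been sorted alive from 2 regions, thalamus and hippocampus (HPC), of C57B6/J mice with a cortical brain injury, and profiled by 10x Genomics 3' single-cell RNA sequencing (scRNA-seq). The thalamus group and the HPC group shared strain and injury, no uninjured group was analysed here, and neither age nor time after injury is given for these samples in the labels. Each region pooled 4 mice, whose cells carried 4 tags, so each of the 8 tagged sets (4 per region) was taken as 1 mouse, which the labels do not state. Errors are therefore the spread between tagged sets, and because each region was a library of its own, region and library cannot be told apart. The labels do not state whether both regions came from the same mice, so the 8 sets may not be 8 separate mice. The regions were compared unpaired.

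Malat1 is among the most abundant noncoding RNAs of mammalian cells and gathers at nuclear speckles, bodies rich in splicing factors. Neat1 is the RNA scaffold of paraspeckles, nuclear bodies that hold back proteins and some edited RNAs, and it is made in a short form and a long form that starts at the same promoter. Kcnq1ot1 is read antisense from within the Kcnq1 gene on the paternal chromosome, where it silences neighbouring imprinted genes.

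The 3' ends are shown first, since a 3' protocol captures RNA by oligo-dT at stretches of A. The sequences were read from GENCODE M21 transcripts (GRCm38), all on the minus strand, 5′ to 3′. Capitals mark the longest run of A in the stretches of Malat1-201 (chr19:5795968-5796039) and Neat1-201, the long form (chr19:5824708-5824767), and the signal AATAAA in Neat1-202, the short form (chr19:5842307-5842366), and in Kcnq1ot1-201 (chr7:143203458-143203517).
Malat1-201: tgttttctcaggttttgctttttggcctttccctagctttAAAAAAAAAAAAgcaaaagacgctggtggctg
Neat1-201: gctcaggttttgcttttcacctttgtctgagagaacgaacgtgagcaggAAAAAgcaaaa
Neat1-202: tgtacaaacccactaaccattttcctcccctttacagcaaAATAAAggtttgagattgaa
Kcnq1ot1-201: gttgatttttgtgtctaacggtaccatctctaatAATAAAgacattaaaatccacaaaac

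The Malat1 and Neat1-201 stretches shared a run of 16 bases, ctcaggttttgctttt, and the 11 bases aaaaagcaaaa at the A-rich end. The Malat1 tract of 12 A started at base 6674 of 6983 of the annotated transcript, 298 bases before its end. As background, the ends of Malat1 and of long Neat1 are made by RNase P cutting just after such a genomic A tract, and short Neat1 is cleaved and polyadenylated in the usual way. On the transcript strand, AATAAA was present in the last 60 bases of 27.15% of 141515 annotated transcripts, and GCAAAA in 2.05%. Kcnq1ot1 is unspliced in the annotation, 93092 bases long, and held 30 runs of at least 8 A, the longest of 41. Malat1 (ENSMUSG00000092341, chr19:5795690-5802672) and Neat1 (ENSMUSG00000092274, chr19:5824708-5845478) are neighbours on chromosome 19 with 22035 bases between them. Kcnq1ot1 (ENSMUSG00000101609, chr7:143203458-143296549) lies antisense to Kcnq1, and the strand setting of the counting is not given in the sources used here. The matrices held 18057 UMIs for Kcnq1ot1 and 13 for Kcnq1.

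Of 29190 cells, 24939 with 119958441 unique molecules (UMIs) had 200 to 7500 detected genes and at most 2% of UMIs from mitochondrial (mt-) genes, and 28612 passed with a limit of 5%. Malat1 took 2644259 of the UMIs kept (2.204%), Kcnq1ot1 16334 and Neat1 14810, so a typical cell carried many Malat1 molecules and 0 or 1 of the others. Levels are UMIs per 10000 UMIs of the summed cells of a set. Cells were gated into 6 classes by 12 marker genes each, which left 807 neutrophil-like, 2758 T- or NK-like, 19527 microglia-like, 142 dendritic-like, 75 B- or plasma-like and 65 macrophage- or monocyte-like cells, and 1565 unclassed. The microglial markers summed to 171 per 10000 in microglia-like cells and to at most 14.5 in any other class. These markers define the gate, so this difference follows from it and is no measure of purity. HPC set 1 stood apart from the other HPC sets, with an mt- share of 0.992% against 0.749% to 0.761% in microglia-like cells. It is named beside several results that rest on it, though not beside all. It held 438 of the 807 neutrophil-like and 55 of the 75 B- or plasma-like cells, so values summed over all sets of these classes lean on it.

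First, the classes were compared. Neutrophil-like cells combined the highest Neat1 with almost no Kcnq1ot1, and microglia-like and T- or NK-like cells had like levels of all 3 RNAs. In the 6 sets with at least 20 neutrophil-like cells, Neat1 was at 13.7, 10.1 and 9.92 per 10000 in the thalamus and at 11.6, 5.04 and 8.46 in the HPC. Microglia-like cells of the 8 sets held 0.658 to 1.49, so the classes did not overlap. Neutrophil-like cells were higher in 6 of 6 sets, by 6.59-fold to 10.7-fold within a set. Kcnq1ot1 went the other way. Only 13 of 1589502 UMIs of neutrophil-like cells were Kcnq1ot1, 0.0818 per 10000 (exact Poisson interval 0.0435 to 0.140, counting error only), against 1.42 (1.40 to 1.44) over microglia-like cells. In 3 of the 6 sets no Kcnq1ot1 UMI was seen in these cells, where a count of 0 allows up to 0.344 to 0.508 per 10000.

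**Figure D1:**
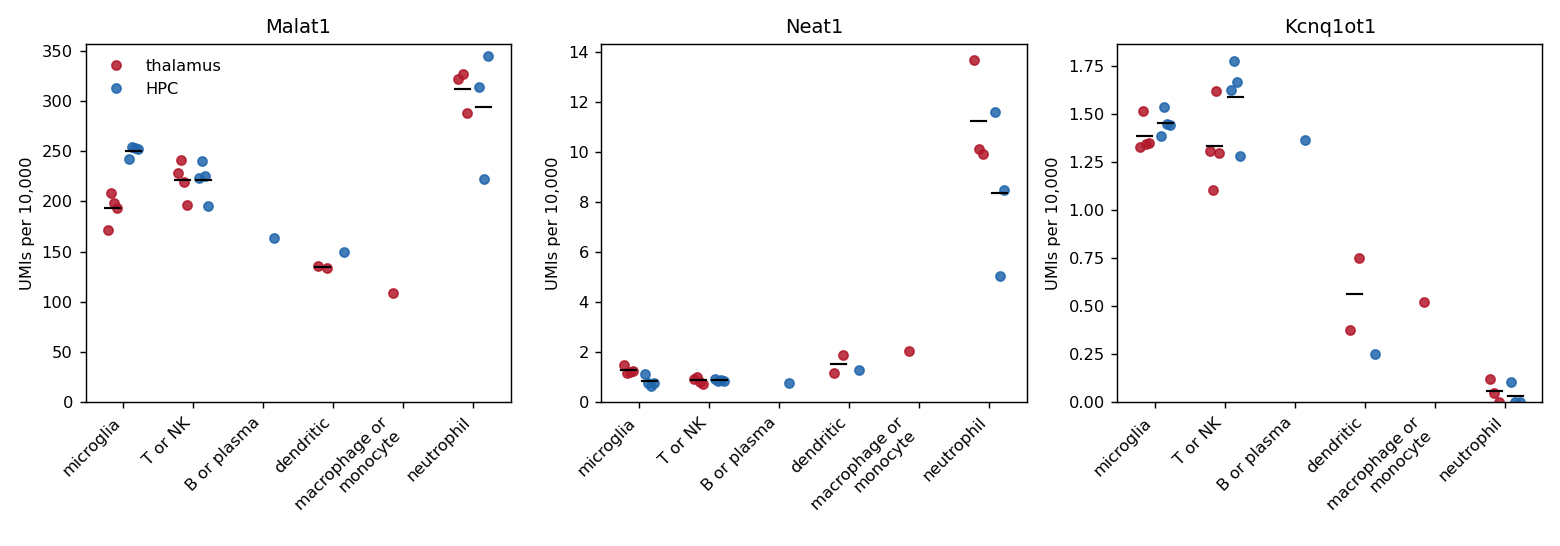
Levels of Malat1, Neat1 and Kcnq1ot1 (y axes, UMIs per 10000 UMIs, linear) in marker-gated classes (x axis). Each point is the sum of 1 tagged set with at least 20 cells of the class, red for thalamus and blue for HPC, and horizontal bars are means over the sets of a region. Neat1 was at 5.04 to 13.7 in neutrophil-like cells and at 0.658 to 2.04 elsewhere, while Kcnq1ot1 was at 0 to 0.124 in neutrophil-like cells and at 1.11 to 1.78 in microglia-like and T- or NK-like cells.

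Neutrophil-like cells were shallow, with medians of 1772 to 2303 UMIs per cell against 4410 to 4960 in microglia-like cells. With every cell thinned to 2000 UMIs and shallower cells left out (203 of 305 thalamus and 266 of 502 HPC neutrophil-like cells), Neat1 was present in 80.4% of 102 thalamus (95% Wilson interval 71.6 to 86.9) and 79.7% of 236 HPC neutrophil-like cells (74.1 to 84.3). The shares in microglia-like cells were 19.9% and 14.2%. Unthinned, they were 74.8% and 77.3% of neutrophil-like and 36.0% and 29.5% of microglia-like cells. A Kcnq1ot1 UMI was seen in 0 of the 102 thinned cells, which allows a share of cells with a UMI of up to 2.94% at this depth and sets no limit on cells that express it, and in 4 of the 236 (1.69%, 0.661 to 4.28), against 19.2% and 19.96% of microglia-like cells. Of the 236 thinned HPC cells, 194 were of HPC set 1, and so were all 4 with a Kcnq1ot1 UMI. The contrast between the classes was thus also present at equal depth.

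Malat1 differed less between classes. It was at 223 to 345 per 10000 in neutrophil-like cells of the 6 sets, at 195 to 241 in T- or NK-like cells and at 172 to 254 in microglia-like cells. Summed over all sets, it was at 168 in B- or plasma-like, 138 in dendritic-like and 100 in macrophage- or monocyte-like cells. Within a set, neutrophil-like cells lay above microglia-like cells in 5 of 6 sets (mean ratio 1.41), and T- or NK-like cells in 4 of 8. Dendritic-like cells held less Malat1 (0.616 to 0.789 of the microglial level) and less Kcnq1ot1 (0.183 to 0.496) in 3 of 3 sets, with 0.254 to 0.751 Kcnq1ot1 per 10000. Macrophage- or monocyte-like cells, with 1 set of at least 20 cells, held 2.04 Neat1 and 0.523 Kcnq1ot1. In order, Neat1 summed over all sets of both regions was highest in neutrophil-like (11.2), then macrophage- or monocyte-like (1.92, Poisson interval 1.54 to 2.36), dendritic-like (1.32, 1.11 to 1.55), microglia-like (1.07), T- or NK-like (0.887) and B- or plasma-like cells (0.796, 0.585 to 1.06). Neighbours from macrophage- or monocyte-like to dendritic-like overlapped in their counting intervals only at the edge, and T- or NK-like and B- or plasma-like cells overlapped fully. The order of the lower classes changed with the sets. In the HPC alone T- or NK-like cells (0.916) lay above microglia-like cells (0.885). There 787 of the 1150 T- or NK-like cells were of HPC set 1. Dendritic-like cells lay below microglia-like cells in 1 of 3 sets (ratio 0.788).

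The genes most like each member were taken from 19 sums of 1 set and 1 class with at least 50 cells (3 neutrophil-like, 7 T- or NK-like, 8 microglia-like, 1 B- or plasma-like), by Pearson's r of log2(CPM + 1) over 7266 genes. The sums share sets and libraries, so r is a description. Malat1 was most like Mir142hg, the host RNA of a leukocyte microRNA (r = 0.92), Crebrf (0.92), Rb1cc1 (0.91), Brd2 (0.90) and Lnpep (0.90). Neat1 was most like Clec4n, a myeloid lectin (0.99), Cstb, F630028O10Rik, Gm6209 and Gm5150 (0.98 to 0.99). Kcnq1ot1 was most like Ddx1, Micu3, Slc50a1, Golga4 and Parp1 (0.98 to 0.99). Over the same sums Neat1 and Kcnq1ot1 had r = -0.96, Malat1 and Neat1 0.69, and Malat1 and Kcnq1ot1 -0.73. The 3 neutrophil-like sums held the highest Neat1 and the lowest Kcnq1ot1 of the 19, and r without them was not computed.

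Next, the regions were compared in microglia-like cells. Thalamic cells held less Malat1 and more Neat1, and the same Kcnq1ot1 within the spread between sets. Malat1 was at 172, 209, 199 and 194 per 10000 in the thalamus sets (193 ± 15.7, SD, n = 4) and at 243, 254, 254 and 252 in the HPC sets (251 ± 5.46, n = 4). All thalamus sets lay below all HPC sets, and the ratio of the means was 0.771. Neat1 was at 1.49, 1.16, 1.22 and 1.26 per 10000 in the thalamus (1.28 ± 0.142) and at 1.15, 0.765, 0.658 and 0.790 in the HPC (0.841 ± 0.215). Its groups were parted only by the gap between 1.16 and 1.15, HPC set 1 being the high one, and they overlapped as Neat1 UMIs per cell and in CPM, counts scaled to a common library size with edgeR's TMM factors, where thalamus sets had a mean of 132 and HPC sets of 82.9. Kcnq1ot1 was at 1.33, 1.51, 1.35 and 1.35 in the thalamus (1.39 ± 0.0862) and at 1.39, 1.54, 1.45 and 1.45 in the HPC (1.45 ± 0.0620), and the groups overlapped.

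Median depth did not part the regions (4410 to 4919 UMIs per cell in the thalamus, 4522 to 4960 in the HPC), nor did the mt- share (0.748% to 0.801% and 0.749% to 0.992%). With an mt- limit of 5%, Malat1 was at 185 ± 17.4 and 250 ± 6.16 per 10000, Neat1 at 1.23 ± 0.111 and 0.824 ± 0.193 and Kcnq1ot1 at 1.32 ± 0.0992 and 1.43 ± 0.0839. In counts summed per set and fitted with edgeR, the log2 difference of thalamus from HPC was -0.31 for Malat1 (SE 0.14), 0.66 for Neat1 (SE 0.18) and -0.00 for Kcnq1ot1 (SE 0.05). Of the 5 marker lists of non-immune cells, 3 did not overlap between the regions. In microglia-like cells, 7 of the 8 genes of the endothelial and choroid plexus list had UMIs, and the endothelial marker Cldn5 was at 0. The list summed to 0.745 to 6.19 per 10000 in thalamus sets and to 0.145 to 0.249 in HPC sets. The astrocyte list (8 of 8 genes with UMIs) was at 2.199 to 2.68 and 3.13 to 3.78, and the erythroid list (6 of 6) at 0.00222 to 0.00779 and 0.0123 to 0.0237. The oligodendrocyte and neuron lists overlapped. The part of these lists in the region difference was not tested.

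T- or NK-like cells from the same sets showed no such parting. They held 221 ± 18.9 Malat1 per 10000 in the thalamus and 221 ± 18.7 in the HPC, 0.874 ± 0.126 and 0.888 ± 0.0470 Neat1, and 1.33 ± 0.212 and 1.59 ± 0.214 Kcnq1ot1 (n = 4 and 4). For all 3 RNAs the sets of the regions overlapped in these cells. As UMIs per cell, Kcnq1ot1 did not overlap (0.464 ± 0.0599 and 0.677 ± 0.0916), and neither did the median depth (3249 to 3526 and 3674 to 4401 UMIs per cell). Whether the regional difference itself differed between classes was not tested.

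The genes around the members were read from lists of known partners and neighbours in the same fit. Between the regions, edgeR's quasi-likelihood test with Benjamini-Hochberg adjustment called 1861 of 13109 genes (14.2%) at an adjusted p under 0.05, 1191 higher in the thalamus (9.09%) and 670 lower (5.11%). With library totals in place of TMM factors, 914 were called higher (6.97%) and 1065 lower (8.12%). Of 15 tested other nuclear long noncoding RNAs, 0 were higher and 5 were lower, with a median log2 difference of -0.20 beside -0.01 over all genes. Mir142hg was at 586 CPM in thalamus and at 877 in HPC sets, with no overlap (log2 difference -0.58, SE 0.06, edgeR adjusted p = 0.00104). Xist, which coats the inactive X chromosome, was at 1098 and 1382 CPM (-0.33, SE 0.07, edgeR adjusted p = 0.0163), and Tsix, its antisense partner, at 82.0 and 106 CPM (-0.38, SE 0.07, edgeR adjusted p = 0.00818). Tsix is read from the strand opposite to Xist and the strand setting of the counting is not given. Its counts, and its place among the 5, are therefore uncertain. The count of 5 was 2 without HPC set 2 or without thalamus set 4 and 3 without thalamus set 2. Without the Malat1-poor cells described further on it was 4, where 6.6% of all genes were called higher and 3.53% lower.

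The counts for the protein partners are read beside the 9.09% of all genes called higher and the 5.11% called lower. Of 32 tested paraspeckle proteins 4 were higher in the thalamus and 0 lower, among them Rbm3, a cold-inducible RNA-binding protein (log2 difference 0.29), Hnrnpf (0.23) and Nudt21 (0.23), and with library totals 1 was higher and 2 lower. Of 26 nuclear speckle proteins, U2af1, a subunit that reads the splice acceptor, was higher (0.25) and Son, a speckle scaffold, lower (-0.26), and with library totals 0 were higher and 4 lower. Of 12 tested genes of Malat1 end processing, mostly RNase P subunits, 1 was higher (Rpp25l, 0.24), and 0 were with library totals. Among 14 cytoplasmic noncoding RNAs, Snhg16 (0.48) and Snhg5 (0.37), which host small nucleolar RNAs, were higher, and with library totals 0 were. Of 8 tested genes of the imprinted Kcnq1 domain 1 was higher (Cars, 0.36) and 0 with library totals, and of 14 tested neighbours of Malat1 and Neat1 on chromosome 19, Ltbp3 (1.06) and Capn1 (0.60) were higher. Ltbp3 and Rpp25l each lost their call in 11 of 17 alternative settings, Snhg5 in 9, Snhg16 in 8 and Capn1 in 7.

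Between the classes, T- or NK-like and microglia-like sums of the same 8 sets differed widely, with 9514 of 12350 genes called (77%), 4565 higher in T- or NK-like cells (37%) and 4949 lower (40.1%). With library totals the shares were 37.6% and 39.2%. For the members, the log2 difference was -0.00 for Malat1 (SE 0.10), -0.34 for Neat1 (SE 0.12) and 0.00 for Kcnq1ot1 (SE 0.09), on the TMM scale and with no test, and the classes overlapped for each. Of 15 other nuclear noncoding RNAs, 4 were higher and 8 lower. Mir155hg, host of a microRNA of activated lymphocytes, was at 20.5 against 1.27 CPM (edgeR adjusted p = 2.95e-09), and Dleu2 at 121 against 788 CPM (edgeR adjusted p = 2.07e-13). Airn, an imprinted antisense RNA, was at 149 against 2.97 CPM, and as it overlaps another gene on the opposite strand its counts are uncertain. Paraspeckle proteins were 15 higher and 6 lower of 32, speckle proteins 13 and 6 of 26, and end-processing genes 7 and 0 of 12. In the Kcnq1 domain, 2 of 8 were higher and 4 lower, with Cd81, a tetraspanin, at 68.3 against 1772 CPM and Cdkn1c, a cell cycle inhibitor, at 0.776 against 11.1 CPM. Kcnq1ot1 itself was at 146 and 143 CPM in these sums.

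From cell to cell, Malat1 in microglia-like cells had a main peak and a separate low tail. The median over cells was 200 per 10000 in the thalamus and 248 in the HPC. Between 25 and 50 per 10000 lay 0% to 1.17% of the cells of a set, and a limit of 50 was set there after the distribution had been seen. Below it lay 416 cells of thalamus set 1 (17.4%), 104 of set 2 (5.69%), 131 of set 3 (6.83%) and 202 of set 4 (8.07%). In the HPC they were 88 (2.45%), 19 (0.590%), 5 (0.253%) and 7 (0.334%). The means were 9.50 ± 5.36% and 0.907 ± 1.04%, and the lowest thalamus set was above the highest HPC set. The low cells had a median of only about 5 Malat1 UMIs per 10000 (4.90 to 6.23 in the thalamus sets and the first 2 HPC sets). Without them, Malat1 was at 204 ± 10.6 per 10000 in the thalamus and 252 ± 4.28 in the HPC, still with no overlap (190 to 215 and 246 to 255). Neat1 was then at 1.38 ± 0.196 and 0.867 ± 0.226, and Kcnq1ot1 at 1.49 ± 0.0780 and 1.498 ± 0.0597.

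**Figure D2:**
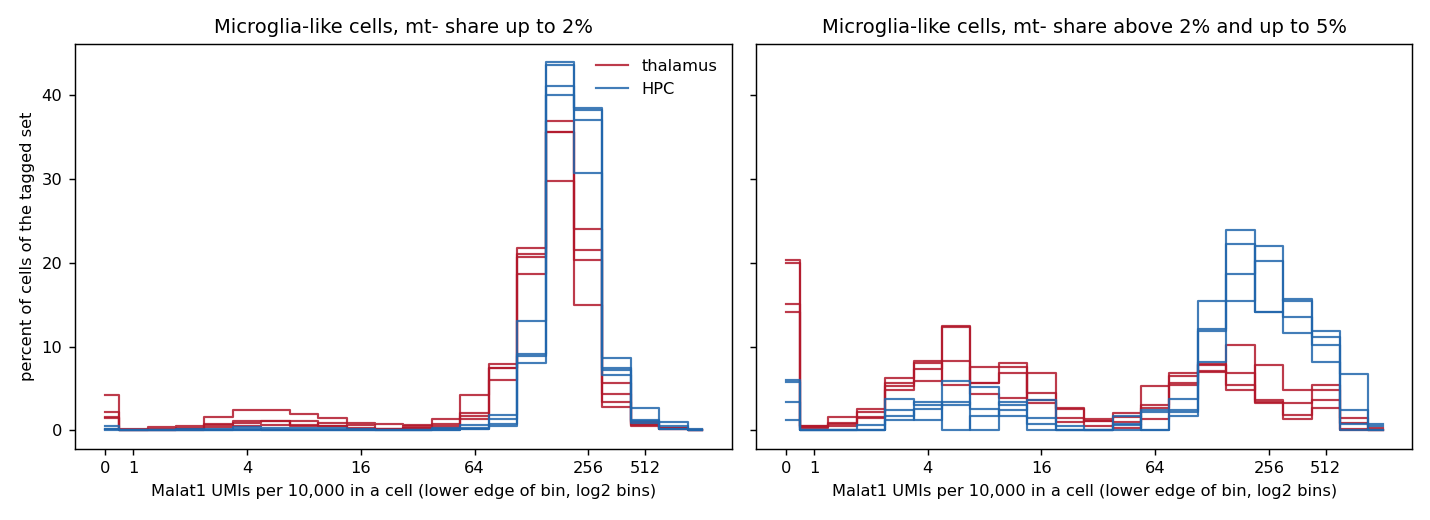
Distribution of Malat1 over microglia-like cells, with Malat1 UMIs per 10000 in a cell on the x axis (log2 bins, 0 included at the left) and the percent of cells of a tagged set on the y axis, at an mt- share up to 2% (left) and above 2% and up to 5% (right). Each line is 1 tagged set, red for thalamus and blue for HPC. The tail at the left is tallest in thalamus set 1 (17.4% of cells under 50), and in the right panel 55.3% to 69.8% of thalamus cells and 15.3% to 26.1% of HPC cells fall under 50.

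The mt- limit bears on this tail. Among microglia-like cells with an mt- share above 2% and up to 5%, which the 2% limit removes, 65.2% of 1240 thalamus cells and 19.8% of 898 HPC cells were under 50. Of these 898 HPC cells, 621 were of HPC set 1. By mt- share, the median over thalamus cells was 220 Malat1 UMIs per 10000 at up to 0.5%, 205 at 0.5% to 1%, 175 at 1% to 1.5%, 147 at 1.5% to 2%, 44.3 at 2% to 3% and 6.27 at 3% to 5%. In the HPC it was 268, 249, 235, 223, 225 and 251 in the same bins, and 19.9 above 5%. The HPC sets parted from each other above 3%, where the median was 33.6 in set 2 (44 cells) and 242 in set 1 (207 cells). In T- or NK-like cells pooled by region, the median was lowest in the bin of least mt- share (157 in the thalamus, with 136 in set 4, and 169 in the HPC) and at 208 or more in every other bin. Neat1 and Kcnq1ot1 were ordered like Malat1 in thalamic microglia-like cells, from 1.38 and 1.53 per 10000 at up to 0.5% mt- share to 0.407 and 0.254 at 3% to 5%.

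**Figure D3:**
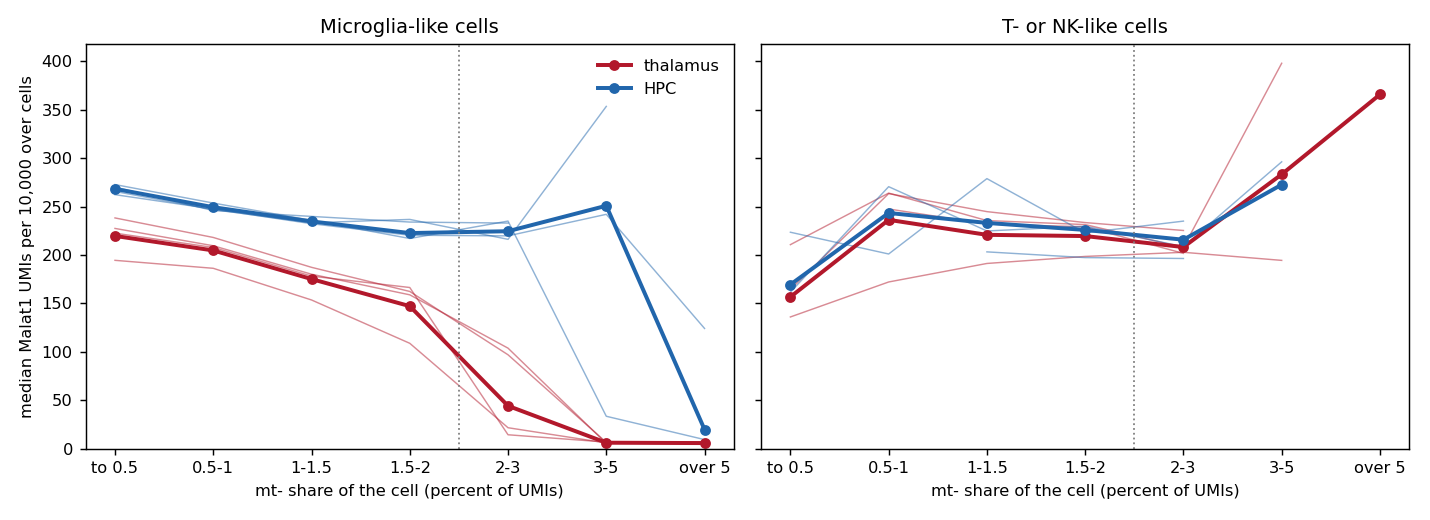
Median Malat1 UMIs per 10000 over cells (y axis) by mt- share of the cell (x axis, percent of UMIs) in microglia-like (left) and T- or NK-like cells (right). Thick lines pool the cells of a region, thin lines are tagged sets, and the dotted line marks the 2% limit. Thalamic microglia-like cells go from 220 to 6.27 between the first bin and 3% to 5%, while the pooled T- or NK-like cells stay at 157 or above and their lowest tagged set at 136.

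Neat1 and Kcnq1ot1 were low in the same cells. In the 5 sets with at least 20 microglia-like cells under 50 (4 thalamus sets and HPC set 1), levels were taken per 10000 UMIs other than Malat1, so that Malat1 itself did not move them. Neat1 was at 0.178, 0.0704, 0.267, 0.171 and 0.0433 in the low cells and at 1.66, 1.22, 1.28, 1.34 and 1.19 in the other cells of these sets. Kcnq1ot1 was at 0.178, 0.141, 0.240, 0.171 and 0 (which allows up to 0.130), against 1.49, 1.59, 1.43, 1.43 and 1.44. Both were lower in 5 of 5 sets, and the low cells held 44 UMIs of each. The mean ratio was 0.107 for Neat1 and 0.0991 for Kcnq1ot1, and 0.0466 for Malat1, which defined the split.

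The low cells also had fewer UMIs, with a median of 2301.5 ± 129 per cell against 4874 ± 309, so the split was repeated in cells with 1500 to 3000 UMIs. This narrowed the gap in depth but did not close it, with medians of 2079.5 UMIs in low cells and 2564.5 in the others of the thalamus, and of 2008 and 2574.5 among HPC cells. In the thalamus, 518 low cells held 10 Neat1 and 1 Kcnq1ot1 UMIs, and 594 other cells 160 and 189. This was 0.0898 against 1.14 Neat1 and 0.00898 against 1.34 Kcnq1ot1 per 10000. In the HPC, 87 low cells held 0 UMIs of either RNA (up to 0.166 per 10000) and 634 others 124 and 178. The low cells detected a median of 783.5 genes in the thalamus against 1490 in the others. Neat1 and Kcnq1ot1 were thus also lower in the low cells within this window.

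Other transcripts of the low cells differed in both directions. Ribosomal protein genes took 16.5 ± 2.42% of non-Malat1 UMIs against 6.59 ± 0.780% (5 of 5 sets higher), and the 20-gene list of disease-associated microglia 1470 ± 187 against 451 ± 90.3 per 10000 (5 of 5). The early response list was at 21.1 ± 3.41 against 70.5 ± 12.0 (5 of 5 lower), and the mt- share at 0.951% against 0.828% (4 of 5 higher). Spp1, the secreted osteopontin, was at 203 ± 137 per 10000 against 19.5 ± 20.9. P2ry12, a homeostatic microglial receptor, was at 2.45 ± 0.757 against 14.2 ± 1.61, and being a gate marker it is a description only.

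**Figure D4:**
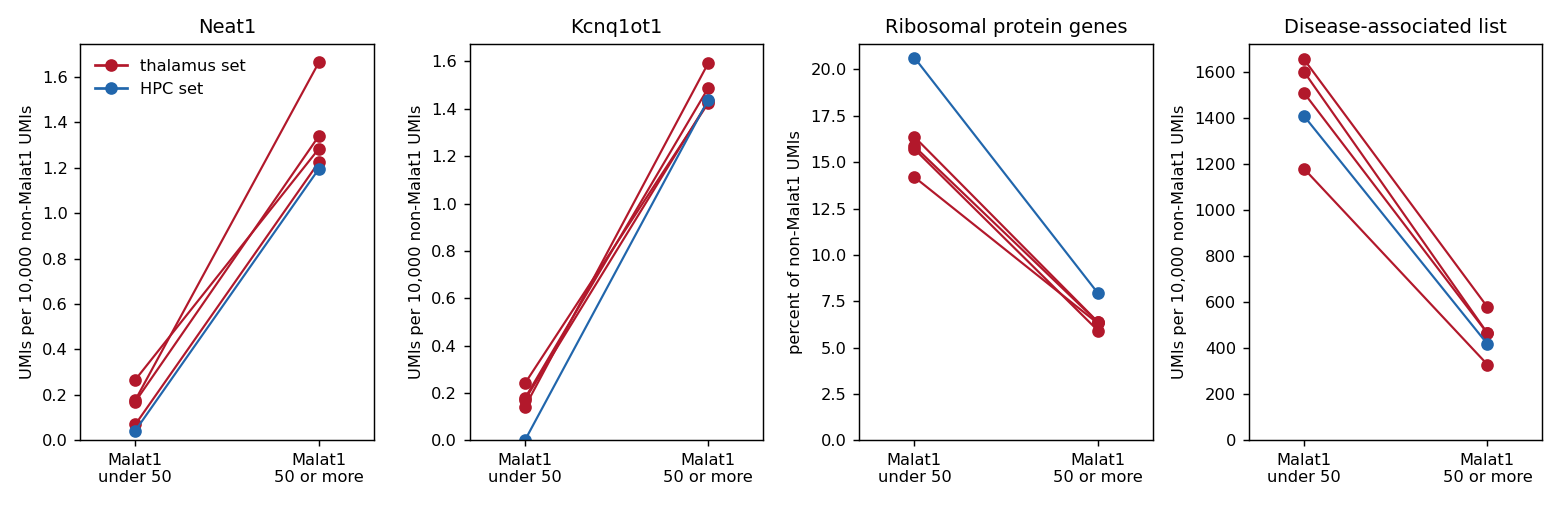
Microglia-like cells under 50 Malat1 UMIs per 10000 beside all others, in the 5 tagged sets with at least 20 such cells (x axis, lines join the cells of 1 set, red for thalamus and blue for HPC). The y axes give Neat1, Kcnq1ot1 and the disease-associated list in UMIs per 10000 non-Malat1 UMIs and ribosomal protein genes in percent of non-Malat1 UMIs. Neat1 and Kcnq1ot1 are lower in the low cells of 5 of 5 sets, and the other panels are higher in 5 of 5.

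Whether other nuclear RNAs were low in these cells was tested by edgeR on the summed counts of the 5 sets, with the set as a block and Malat1 left out, a comparison added after the distribution had been seen. It called 7409 of 11610 genes (63.8%), 3148 higher in the low cells (27.1%) and 4261 lower (36.7%). Scaling mattered here: the median log2 difference over all genes was -0.34 with TMM factors and -1.28 with library totals, where 1526 genes were called higher (13.1%) and 7448 lower (64.2%). Of 13 tested other nuclear noncoding RNAs, 0 were higher and 10 lower with TMM factors (median -2.21), and 13 were lower with library totals (median -3.15). Xist was at 0.749 ± 0.515 per 10000 in the low cells and 12.3 ± 1.81 in the others (TMM log2 difference -3.02, SE 0.16, edgeR adjusted p = 5.19e-24). Its low-cell values ran from 0.217 to 1.55 per 10000 over the 5 sets, and the p-value also rests on dispersion shared across genes. Tsix, whose counts are uncertain as above, was at 0.0496 against 0.927 per 10000. Firre, which helps to place the inactive X, was at 0.0139 against 0.249 per 10000, from 4 and 1448 UMIs. Both were lower in 5 of 5 sets. The values of Neat1 (-2.20, SE 0.21) and Kcnq1ot1 (-2.23, SE 0.21), untested, lay near the median of that list.

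Noncoding RNAs that leave the nucleus for the cytoplasm were placed differently. Of 14 cytoplasmic noncoding RNAs 9 were higher and 0 lower with TMM factors (median 0.77), but with library totals 5 were higher and 4 lower (median -0.17). Gas5, a spliced host of small nucleolar RNAs, was at 2.55 ± 0.346 per 10000 against 1.65 ± 0.189, higher in 5 of 5 sets, and Snhg8 at 0.679 against 0.470, and both were called higher on both scales. The change of scaling shifted all genes of this fit by nearly the same amount, so the sign of the cytoplasmic median depends on it.

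Messages of the speckle and paraspeckle proteins were split. Of 26 speckle genes, 5 were higher and 13 lower with TMM factors (median -0.30), and 0 and 22 with library totals. The kinases of splicing factors Clk1 (0.276 ± 0.116 against 2.74 ± 0.148 per 10000) and Clk4 (0.151 against 0.751), and Pnisr (0.313 against 2.71), were lower in 5 of 5 sets. Srsf3, a splicing factor, was at 2.11 against 2.12 per 10000 and was called higher only on the TMM scale. Of 32 paraspeckle genes 8 were higher and 15 lower (3 and 26 with library totals). Rbm3 was at 2.95 ± 0.359 against 1.52 ± 0.110 and Hnrnpa1 at 1.65 against 1.12, while Hnrnph3 was at 0.237 against 1.19 and Cpsf7, a subunit of the 3' cleavage factor, at 0.0927 against 0.490. Ss18l1 had 0 UMIs in the low cells, the smaller group, and 436 in the others, where it was at only 0.0732 per 10000. Of 12 end-processing genes 8 were higher and 0 lower with TMM factors, and 1 and 3 with library totals. Pop4, an RNase P subunit, was at 0.174 against 0.0964 per 10000.

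Genomic neighbours of the members were split. Of 8 tested genes of the Kcnq1 domain, 3 were higher and 0 lower on the TMM scale, and 1 and 4 with library totals. Cd81 was at 28.3 ± 4.25 against 18.1 ± 0.756 per 10000. Of 12 neighbours of Malat1 and Neat1, 2 were higher and 4 lower (1 and 9 with library totals), with Fam89b at 0.688 against 0.446 and Sipa1, a GTPase regulator, at 0.423 against 1.67 per 10000.

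**Figure D5:**
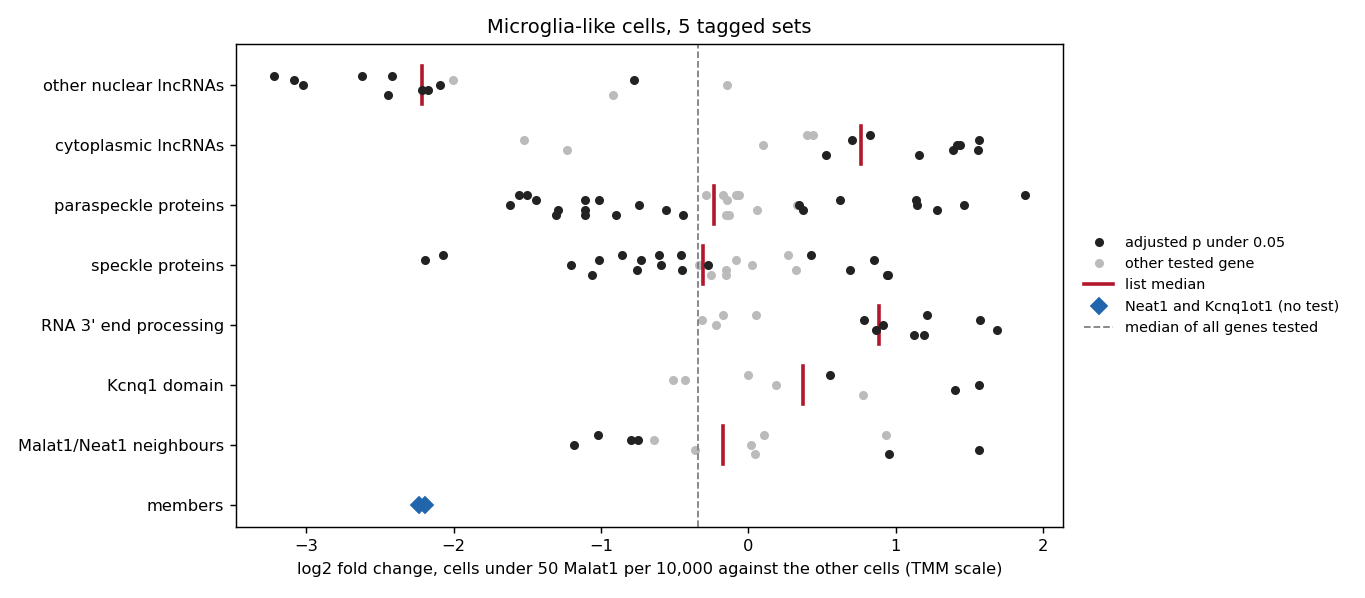
Log2 fold change of cells under 50 Malat1 UMIs per 10000 against all other microglia-like cells (x axis, TMM scale, 5 tagged sets) for the tested genes of each list (y axis). Black points passed an edgeR adjusted p under 0.05, red bars are list medians, blue diamonds are Neat1 and Kcnq1ot1 (no test), the dashed line is the median of all genes (-0.34), and Ss18l1, with 0 UMIs in the low cells, is not drawn. The other nuclear noncoding RNAs centre at -2.21, while the cytoplasmic ones centre at 0.77 on this scale and at -0.17 with library totals.

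Low T- or NK-like cells kept more Malat1 than low microglia-like cells. They made up 6.04 ± 2.10% of these cells in thalamus sets and 3.62 ± 2.42% in HPC sets, with overlap, and were at 28.3 ± 0.792 Malat1 UMIs per 10000 in the 3 sets with at least 20 of them, against 9.81 ± 1.43 in low microglia-like cells. Neat1 was lower in 3 of 3 sets (mean ratio 0.222, with 0 to 4 UMIs per set in the low cells), and so was Kcnq1ot1 (0.193, with 1 to 13 UMIs). The ribosomal share was 1.27 times that of the other cells, the disease-associated list 0.989 times and the early response list 1.63 times, where it had been 0.303 times in microglia-like cells.

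Finally, the whole range of Malat1 was examined, by splitting the microglia-like cells of each of the 8 sets into 4 bins of equal size. The lowest bin includes the cells under 50. In the edgeR fit below they were 416 of 597, 104 of 457, 131 of 479 and 202 of 625 cells of this bin in the thalamus sets. In HPC set 1 they were 88 of 898, and the other HPC sets had few. No bin result was computed without them, so the bins partly repeat the split at 50. From the lowest to the highest Malat1 bin, Neat1 went from 0.899 ± 0.223 to 1.25 ± 0.352 per 10000 non-Malat1 UMIs (higher in 8 of 8 sets) and Kcnq1ot1 from 1.29 ± 0.307 to 1.58 ± 0.105 (7 of 8). Depth moved with the rarer RNAs: in the deepest against the shallowest bin of cells, Neat1 was 1.72-fold and Kcnq1ot1 1.70-fold higher (8 of 8 sets each), and Malat1 was at 192 against 249 per 10000 (higher in 1 of 8). By the disease-associated list, Malat1 was at 244 ± 20.98 in the lowest and 186 ± 51.6 in the highest bin (lower in 8 of 8), Kcnq1ot1 at 1.59 ± 0.103 and 1.23 ± 0.187, and Neat1 at 0.928 ± 0.273 and 1.13 ± 0.224 (higher in 7 of 8). By the homeostatic list, Neat1 was at 1.45 ± 0.352 in the lowest and 0.767 ± 0.245 in the highest bin (lower in 8 of 8), while Malat1 was at 207 and 238 (higher in 7 of 8). The early response list ordered Neat1 upward, from 0.875 to 1.28 (7 of 8). Neat1 and Malat1 were thus ordered in opposite ways by the disease-associated and homeostatic lists. Most genes of the homeostatic list are also markers of the microglial gate. These lists were ranked in the same cells, and depth also differed between bins.

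In the edgeR fit of the lowest against the highest Malat1 bin, with the set as a block, 2582 of 10707 genes were called (24.1%), 1608 higher in the lowest bin (15%) and 974 lower (9.1%). With library totals 42.7% were called, 908 higher (8.48%) and 3661 lower (34.2%), and the median over all genes moved from -0.01 to -0.23. Of 12 other nuclear noncoding RNAs 6 were lower and 1 higher (median -0.30), among the lower Mir142hg (-0.50, SE 0.10), Firre (-0.45, SE 0.10) and Jpx, an activator of Xist (-0.32, SE 0.10). The higher one, Pvt1 (0.24), turned sign in 4 settings. The count of 6 was 0 with an mt- limit of 5%, 2 with no replicate block, 3 without thalamus set 2, thalamus set 4 or HPC set 1, and 10 with library totals. Neat1 (-0.23, SE 0.08) and Kcnq1ot1 (-0.11, SE 0.08), untested, leaned the same way by less. Of 26 speckle genes 0 were higher and 9 lower (0 and 20 with library totals), led by Pnn (-0.50), Prpf4b, a splicing kinase (-0.42), and Clk1 (-0.41). Of 32 paraspeckle genes 5 were higher and 11 lower (1 and 19 with library totals), and of 14 cytoplasmic noncoding RNAs 5 were higher and 0 lower (1 and 0 with library totals), among them Zfas1 (0.54) and Gas5 (0.39). The disease-associated list was higher for 19 of 19 genes (also with library totals) and the interferon list for 12 of 12 (8 of 12 with library totals). Across all 18 alternative settings, 15 to 19 disease-associated and 2 to 12 interferon genes were called higher.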

How the data were processed

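CD45-positive cells of thalamus and HPC were measured in 8 deposited matrices. The values were counts: raw UMI counts per gene and cell, made by the authors with Cell Ranger 7.1.0 per the file headers (the methods name an earlier version) on mm10 (GRCm38), and whether introns were counted is not given in the sources used here. Multiplexing oligos were left out. A single tag led in at least 99.9% of the cells of each set. No barcode was shared within a region and 65 occurred in both regions.

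The members and all gene lists were chosen with earlier results of these data known. Cells were classed by the most detected of 12 markers (at least 3, and a second class at no more than 50% of the first, otherwise unclassed), which set aside 1373 cells with markers of 2 classes; no doublet caller was run, and leaving out the 5% of cells with most UMIs was an alternative. The kept sets held 9789875 to 26636526 UMIs. Raw counts were summed per set over at least 20 cells and fitted with edgeR 4.0.16 in R 4.3.3 (TMM, filterByExpr, quasi-likelihood F-test, Benjamini-Hochberg over all genes tested, threshold 0.05), with the set as a block within sets and none between regions. DESeq2 1.42.0 was an alternative. SEs are the log2 difference over the root of F. Scripts were tested on simulated data. Named genes were the members and, per list and fit, up to 3 called genes with the largest change in each direction. The genes most like a member were the 5 with the highest r among genes with a mean of at least 20 CPM, gate markers left out. Alternatives with cells under 50 Malat1 per 10000 split off or left out, and with library totals in place of TMM factors, were added after seeing the data. Wilson and Poisson intervals are at 95%, a count of 0 was given a limit of 3 counts, and both cover counting error only. p-values and SEs rest on the spread between tagged sets, with the dispersion of each gene moderated by that of the other genes. A very small p-value is therefore not a measure of the spread of that gene alone.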

Additional observations from a re-analysis of the deposited data

Results flagged for a closer look

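In 14 groups of 4 tagged sets examined, 2 held a set far from the other 3 by Dixon's criterion, which chance gives in about 1 group in 20. In microglia-like cells of the thalamus, Kcnq1ot1 was at 1.515 per 10000 in set 2, a gap of 0.893 of the range of the group. In the HPC, the share of microglia-like cells under 50 Malat1 UMIs per 10000 was 2.45% in set 1, a gap of 0.846 of the range. HPC set 1 also had the highest mt- share of microglia-like cells in the HPC (0.992%) and the highest ribosomal share (7.90%), and their part in this was not tested.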

How the results depend on the processing

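The labels give the sets of both regions the numbers 1 to 4. Same-numbered sets deviated together with correlations of 0.469, 0.124, 0.446 and 0.0654, so, with 1 of 4 under 0.1, the numbers were not taken to pair them. Each thalamus set correlated best with the HPC set of its own number, and 3 of 4 HPC sets did so, a hint from the data and not from the design. For thalamus against HPC, microglia-like cells, the replicate block gave 3857 called genes in place of 1861. Leaving out a set gave 773 to 3198, lowest without HPC set 2 and highest without HPC set 1, with 1055, 1030 and 996 without thalamus set 1, thalamus set 4 and HPC set 4. For T- or NK-like against microglia-like cells, leaving out a set gave 9108 to 9644 called genes, and all 15 alternatives stayed within 1.5 times the count. For Malat1-low against Malat1-high microglia-like cells, the count of 2582 was 1344 with an mt- limit of 5%, 1578 with no replicate block, 4569 with library totals in place of TMM factors, 7409 for cells under 50 against all others and 8974 for that split with library totals. Leaving out a set gave 1585 to 2637, with 1618 without thalamus set 2 and 1585 without thalamus set 4. Signs turned for 3 named genes of this comparison: Pvt1 was at -0.10 with the 5% limit, -0.25 with 10 bins in place of 4, -2.18 for the split at 50 and -3.12 for it with library totals; Klf2 was at -1.37 and -2.30 under the last 2, and Olfml3 at -0.063 under the last. The cause was not tested.

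Member levels in microglia-like cells moved by more than 1 SD in these cases. Malat1 in the HPC was at 257 thinned and 270.1 with mt- and ribosomal genes out of the total. Kcnq1ot1 was at 1.497 (thalamus) and 1.57 (HPC) with those genes out and at 1.39 (HPC) thinned. The median over cells was 0 for Neat1 and Kcnq1ot1 in both regions, where depth is the limit. Leaving out a set gave Malat1 188 to 200.5 and 249 to 253, Neat1 1.21 to 1.32 and 0.738 to 0.902, and Kcnq1ot1 1.34 to 1.40 and 1.43 to 1.48 in thalamus and HPC. Under 17 alternatives, the regional log2 difference was -0.37 to -0.27 for Malat1, 0.55 to 0.89 for Neat1 and -0.07 to 0.03 for Kcnq1ot1.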
